A study of Drosophila melanogaster with 8 samples.

Results

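Nucleoporins build the channels through the nuclear envelope, and transport receptors carry proteins and RNAs through them. Of the 14210 genes in the expression tables, 25 belong to this set. They were chosen by name, with upper and lower case kept apart: 15 symbols that start with Nup and a digit, the nucleoporin genes mbo and Mtor, and 8 receptor genes (Pen, Kap-alpha1, Kap-alpha3, Fs(2)Ket, Karybeta3, Trn, msk and emb). The symbol Ran, with a capital letter, matched 0 genes. The tables list that gene as ran, and it is described with the rest of the pathway. The cells compared were neuroblasts, the stem cells of the larval brain (5 libraries, 3 biological replicates), and they were set against neurons, their differentiated daughters (3 libraries, 2 biological replicates). Both groups came from wild-type Drosophila melanogaster brains late in the third larval instar, both carried UAS-stingerGFP (a nuclear green fluorescent protein) under asense-Gal4, and both were sorted by FACS. Eggs were collected over 24 h and larvae were kept for 5 more days at 25 degrees. The labels do not say how the gate told neuroblasts from neurons, or how many brains were pooled in a sample.

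Each pore is a ring of many copies of a limited number of proteins. A Y-shaped complex forms the outer scaffold, an inner ring and central channel proteins with phenylalanine-glycine repeats line the passage, and filaments extend on the cytoplasmic side and a basket on the nuclear side. Importin alpha binds a classical nuclear localization signal and is itself carried inward by importin beta, while other importins bind their cargo directly and exportins take cargo outward. The small GTPase Ran sets the direction, since its GTP form, made in the nucleus, releases cargo from importins and loads exportins.

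The 8 libraries held 953228 to 16282423 recovered fragments over genes with a single transcript, and neuroblast 3 had the most. The cells matched their labels: the summed FPKM (fragments per kilobase of transcript, scaled to the mapped fragments of the library) of 5 neuroblast markers, among them dpn and mira, was 1321 to 1472 in the neuroblast libraries, against 40.3 to 74.6 in the neuron libraries, and that of 6 neuronal markers, among them elav and n-syb, was 10.7 to 103.8 and 551 to 750.3. The 6 neuronal markers summed to 103.8, 55.0 and 10.7 FPKM in neuroblasts 1, 2 and 3, and each of them was lowest in neuroblast 3. The sum of 9 glial markers was 170.4 to 249 FPKM in the neuroblast libraries, against 102 to 133 in the neuron libraries, with 2 of the 9 called higher in neuroblasts and 5 in neurons. The glial factor repo averaged 0.597 FPKM in neuroblasts, against 8.81 FPKM in neurons. Of 8 blood cell markers He was at 0 in all libraries, and the sums were 11.3 to 42.6 and 10.9 to 19.7 FPKM. The 4 fat body markers summed to 0 to 0.158 and 0.0941 to 0.742 FPKM and the 4 ring gland markers to 0.168 to 0.361 and 2.94 to 3.75 FPKM. The part of these other cells in the results was not tested. In sorted bulk samples, fewer cells of a type and less RNA per cell cannot be told apart.

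All 25 genes reached 1 FPKM in at least 2 replicates and entered the comparison of neuroblasts with neurons. Of these, 20 were higher in neuroblasts at a limma adjusted p under 0.05, where 33.4% of all 7975 tested genes were. None of the 25 was higher in neurons at that threshold (0 genes, against 29.9% of all tested genes), and 0 of the 5 others had a negative difference at an unadjusted p under 0.05. The replicates of the groups did not overlap for 21 of the 25, all of them higher in neuroblasts, as for 41.8% of all tested genes. The median log2 fold change, on the log2(FPKM + 1) scale used throughout, was 1.89 for the 25 genes and 0.17 for all tested genes. The 5 genes that did not pass were Fs(2)Ket, Mtor, Nup153, Kap-alpha3 and Trn, which include 2 of the 3 basket genes and the commonest importin alpha of neurons. FPKM over all genes summed to 449268 to 753682 in the neuroblast libraries and 321551 to 343514 in the neuron libraries. The size of the fold changes therefore depends on the scaling, and the printed FPKM were not rescaled. With libraries scaled to their protein-coding sum, emb, Kap-alpha1 and Nup98-96 did not pass and Kap-alpha3 passed as higher in neurons (-0.66, limma adjusted p = 0.0271). Of all tested genes 21.9% were then called higher in neuroblasts and 43.8% in neurons. The median log2 fold change was then 1.14 for the 25 genes and -0.53 for all tested genes. On the 1 flow cell that neuroblasts 1 and 2 shared with neuron 1, the median of the 25 genes was 1.56, beside 0.25 for all tested genes. Among the 17 nucleoporins 15 passed, with a median of 2.00, and among the 8 receptors 5 passed, with a median of 1.14.

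**Figure D1:**
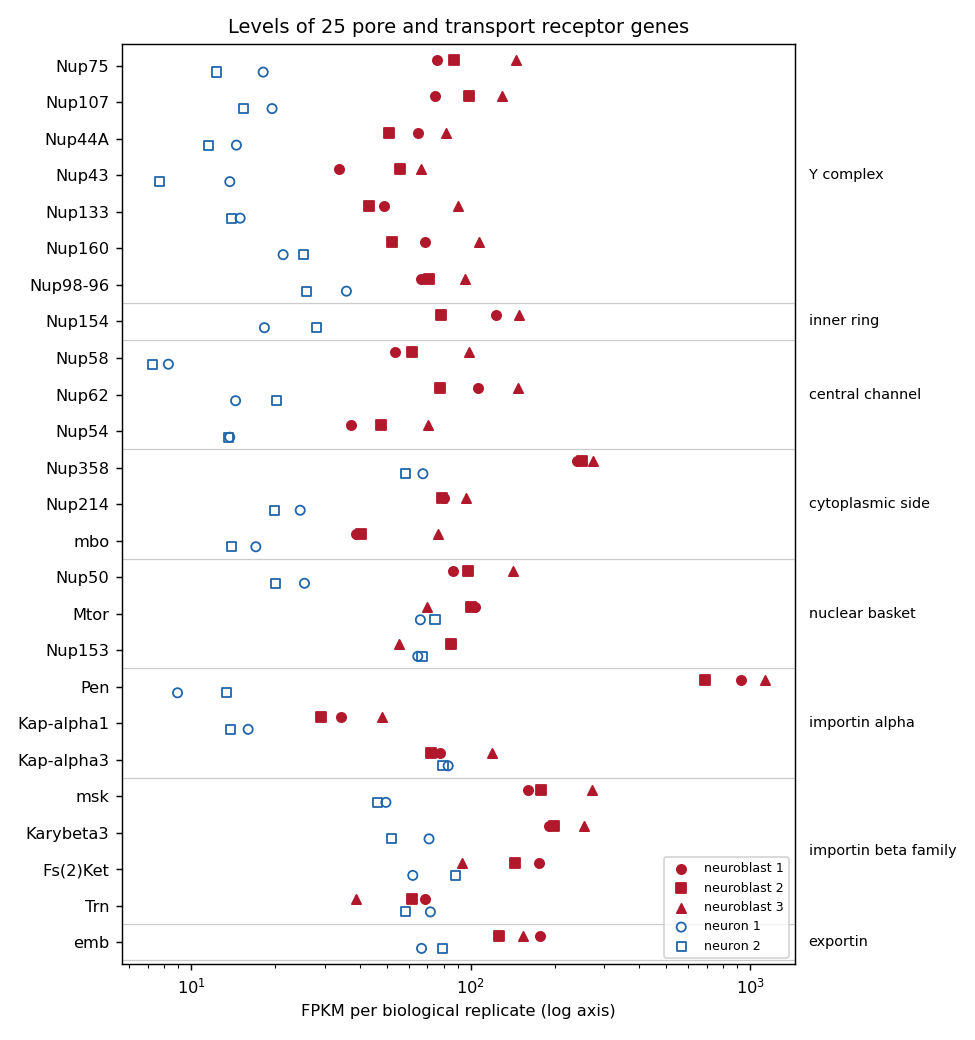
FPKM of each of the 25 genes in each biological replicate on a log axis, grouped by place in the pore or by receptor family, with neuroblasts as filled red symbols above neurons as open blue symbols. The 2 kinds of symbol lie apart for 21 genes and mix for Mtor, Nup153, Kap-alpha3 and Trn, and Pen runs from 8.93 FPKM in neuron 1 to 1125 FPKM in neuroblast 3.

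The 3 importin alpha genes parted most. Pen (Pendulin, an importin alpha; FBgn0011823, 2L, 10056906 to 10060095) stood at 926, 689.6 and 1125 FPKM in neuroblasts 1, 2 and 3, against 8.93 and 13.4 FPKM in neurons 1 and 2. The lowest neuroblast value was 51.4 times the highest neuron value. The identifier of Pen was not in the reference annotation, so overlap of its exons with other genes was not checked. The log2 fold change of Pen was 6.23 (SE 0.32, adjusted p = 0.000196) with limma, the 8th largest increase among all tested genes. Kap-alpha1 (FBgn0024889, 3L, 19800347 to 19803498) stood at 34.2, 29.1 and 48.3 FPKM in neuroblasts 1, 2 and 3, against 16.0 and 13.8 FPKM in neurons 1 and 2. Its log2 fold change was 1.24 (SE 0.30, adjusted p = 0.00952), and without neuron replicate 2 it was 1.14 with an adjusted p of 0.074. Kap-alpha3 (FBgn0027338, 3R, 5400206 to 5403506) stood at 77.3, 71.9 and 119 FPKM in neuroblasts 1, 2 and 3, against 83.0 and 79.5 FPKM in neurons 1 and 2, so that the groups overlapped. Its difference was 0.10 with a 95% confidence interval of -0.59 to 0.79 and an adjusted p of 0.779, and its sign turned with each of 4 other scalings and without neuroblast replicate 3.

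As a share of the summed importin alpha FPKM, which does not depend on library scaling, Pen made up 89.2%, 87.2% and 87.0% in neuroblasts 1, 2 and 3, against 8.28% and 12.6% in neurons 1 and 2. Kap-alpha3 made up 7.45%, 9.09% and 9.22% in neuroblasts and 76.9% and 74.5% in neurons, and Kap-alpha1 3.30%, 3.69% and 3.74% in neuroblasts and 14.8% and 13.0% in neurons. The commonest importin alpha transcript was thus Pen in all 3 neuroblast replicates and Kap-alpha3 in both neuron replicates. The Pen share was 87.8% ± 1.23 (SD, n = 3) in neuroblasts, against 10.4% ± 3.03 (SD, n = 2) in neurons, and the exact two-sided permutation test gave p = 0.2, which is the smallest that 3 against 2 replicates allow. The sum over the 3 genes was 1038, 790.6 and 1292 FPKM in neuroblasts and 107.9 and 106.8 FPKM in neurons.

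**Figure D2:**
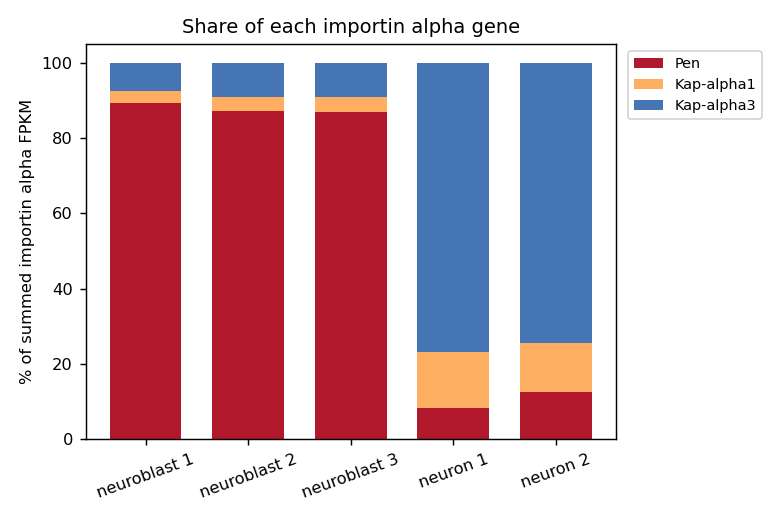
Share of Pen, Kap-alpha1 and Kap-alpha3 in the summed importin alpha FPKM (%) of each biological replicate, neuroblasts on the left and neurons on the right. Pen takes 87.0% to 89.2% of each neuroblast bar and 8.28% to 12.6% of each neuron bar, where Kap-alpha3 takes 74.5% to 76.9%.

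Whether these genes differed from each other in their change was tested on within-replicate log2 ratios, for 6 pairs chosen after their values were seen, with limma and adjustment over all genes set against the same partner. Genes set against the same partner share its replicate values and are not independent, so the intervals and p-values of these ratios may be too small. The log2 fold change of Pen exceeded that of Kap-alpha3 by 6.13 (95% confidence interval 5.46 to 6.80, adjusted p = 0.000306). That of Kap-alpha1 exceeded that of Kap-alpha3 by 1.14 (0.61 to 1.66, adjusted p = 0.00754), and without neuron replicate 2 the difference was 1.07 with an adjusted p of 0.0554.

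Of the 4 importin beta family genes, msk and Karybeta3 passed and Fs(2)Ket and Trn did not. Moleskin (msk, the fly importin 7; FBgn0026252, 3L, 8109278 to 8114681) stood at 160.2, 178 and 272 FPKM in neuroblasts 1, 2 and 3, against 49.7 and 46.3 FPKM in neurons 1 and 2, a log2 fold change of 2.02 (SE 0.30, adjusted p = 0.00148). Karybeta3, related to human importin 5 (FBgn0087013, 3R, 474945 to 480360), stood at 190.1, 199 and 254 FPKM in neuroblasts 1, 2 and 3, against 70.9 and 51.9 FPKM in neurons 1 and 2, a log2 fold change of 1.79 (SE 0.27, adjusted p = 0.00167). In both, every neuroblast value lay well above the neuron values, the lowest at 3.22 times the highest neuron value for msk and 2.68 times for Karybeta3. Fs(2)Ket, which encodes importin beta itself (FBgn0262743, 2L, 20734710 to 20750941), stood at 175, 144 and 93.0 FPKM in neuroblasts 1, 2 and 3, against 62.04 and 88.1 FPKM in neurons 1 and 2. The groups did not overlap, but neuroblast 3 and neuron 2 lay close together. The difference was 0.84 (95% confidence interval 0.03 to 1.65, adjusted p = 0.0655), and without neuroblast replicate 3 it passed, at 1.09 with an adjusted p of 0.0151.

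Transportin (Trn, the receptor that imports hnRNP proteins; FBgn0024921, 3L, 6186584 to 6192105) was the one gene of the set with a negative difference, -0.23 (95% confidence interval -0.97 to 0.51, limma adjusted p = 0.532), and it was 0.01 without neuroblast replicate 3. It stood at 68.9, 61.8 and 38.8 FPKM in neuroblasts 1, 2 and 3, against 71.7 and 58.4 FPKM in neurons 1 and 2, and the groups overlapped. All genes set against Trn shared its replicate values, so the intervals and p-values of ratios to Trn may be too small. On within-replicate ratios the log2 fold change of msk exceeded that of Trn by 2.26 (1.06 to 3.46, limma adjusted p = 0.00141). That of Karybeta3 exceeded it by 2.03 (0.83 to 3.22, limma adjusted p = 0.00385). These calls did not hold without neuron replicate 1 (2.16 with adjusted p = 0.0613 for msk, 2.10 with 0.0717 for Karybeta3), nor for Karybeta3 without neuron replicate 2 (1.95 with 0.0959). Embargoed (emb, the exportin for leucine-rich export signals, CRM1 in vertebrates; FBgn0020497, 2L, 8403575 to 8408853) stood at 177, 126 and 154 FPKM in neuroblasts 1, 2 and 3, against 66.7 and 79.1 FPKM in neurons 1 and 2, with no overlap. Its log2 fold change of 1.05 (SE 0.26, adjusted p = 0.0111) was the smallest that passed, and it did not pass without either neuron replicate, at 0.92 with an adjusted p of 0.126 and 1.17 with 0.0635.

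The 7 Y complex genes all passed, with log2 fold changes of 1.301 to 2.65. Nup75 (FBgn0034310, 2R, 14052193 to 14054634) stood at 75.5, 87.5 and 145 FPKM in neuroblasts 1, 2 and 3, against 18.1 and 12.3 FPKM in neurons 1 and 2, a log2 fold change of 2.65 (SE 0.35, adjusted p = 0.00109). Nup107 (FBgn0027868, 2L, 10733293 to 10736077) stood at 74.2, 98.5 and 129.7 FPKM in neuroblasts 1, 2 and 3, against 19.5 and 15.4 FPKM in neurons 1 and 2, a log2 fold change of 2.44 (SE 0.30, adjusted p = 0.000957). In both genes every neuroblast replicate lay several times above each neuron replicate. Nup44A, the fly Seh1, stood at 64.7, 51.0 and 81.6 FPKM in neuroblasts 1, 2 and 3, against 14.5 and 11.5 FPKM in neurons 1 and 2. Nup43, among the lowest of the set in both cell types, stood at 33.7, 55.8 and 66.3 FPKM in neuroblasts 1, 2 and 3, against 13.7 and 7.70 FPKM in neurons 1 and 2, and its smallest neuron library held 35 fragments, a counting SD of 16.9%. These 2 smaller subunits had log2 fold changes of 2.23 and 2.17.

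Nup133 stood at 49.1, 43.2 and 90.1 FPKM in neuroblasts 1, 2 and 3, against 15.0 and 13.9 FPKM in neurons 1 and 2. Nup160 stood at 68.6, 52.4 and 107 FPKM in neuroblasts 1, 2 and 3, against 21.3 and 25.2 FPKM in neurons 1 and 2. The log2 fold changes of these long scaffold subunits were 1.93 and 1.61, with limma adjusted p-values of 0.00326 and 0.00568. Nup98-96, a single gene whose product is cut into the repeat protein Nup98 and the scaffold protein Nup96, stood at 66.1, 70.8 and 95.7 FPKM in neuroblasts 1, 2 and 3, against 35.9 and 25.9 FPKM in neurons 1 and 2. Its log2 fold change of 1.301 (SE 0.28, adjusted p = 0.00633) was the smallest of the complex, and without neuron replicate 2 it was 1.07 with an adjusted p of 0.079. In the reference annotation 404 of the 4747 exon bases of Nup160 overlap a gene on the opposite strand, and the strand setting of the authors' quantification was not given in the sources used here.

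Of the inner ring 1 gene matched by name, Nup154 (FBgn0021761, 2L, 11004823 to 11009878), at 124, 78.3 and 149 FPKM in neuroblasts 1, 2 and 3, against 18.3 and 28.1 FPKM in neurons 1 and 2. Its log2 fold change was 2.27 (SE 0.35, adjusted p = 0.00171), and 1077 of its 5420 exon bases overlap a gene on the opposite strand, so that its value is uncertain. The 3 genes of the central channel, whose products form the repeat-rich barrier, all passed. Nup58 (FBgn0038722, 3R, 15470750 to 15472628) stood at 53.5, 61.9 and 98.5 FPKM in neuroblasts 1, 2 and 3, against 8.28 and 7.28 FPKM in neurons 1 and 2, and its log2 fold change of 3.00 (SE 0.32, adjusted p = 0.000701) was the largest of the nucleoporins. Nup62 stood at 106, 77.8 and 148 FPKM in neuroblasts 1, 2 and 3, against 14.4 and 20.2 FPKM in neurons 1 and 2. Nup54 stood at 37.2, 47.8 and 70.5 FPKM in neuroblasts 1, 2 and 3, against 13.7 and 13.6 FPKM in neurons 1 and 2. Their log2 fold changes were 2.58 and 1.799, and in each case the lowest neuroblast replicate was at least 2.71 times the highest neuron replicate. Of the 2048 exon bases of Nup54, 218 overlap a gene on the opposite strand.

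On the cytoplasmic side all 3 genes passed. Nup358 (the fly RanBP2, which holds RanGAP at the pore; FBgn0039302, 3R, 21075316 to 21084394) stood at 239, 249.7 and 273 FPKM in neuroblasts 1, 2 and 3, against 67.5 and 58.5 FPKM in neurons 1 and 2, the highest of the nucleoporins in neuroblasts, with a log2 fold change of 2.00 (SE 0.24, adjusted p = 0.000883). Its 3 neuroblast values lay close together, and it averaged 254 ± 17.3 FPKM in neuroblasts, against 63.0 ± 6.30 in neurons (SD, n = 3 and 2). Nup214 stood at 80, 79.1 and 96.2 FPKM in neuroblasts 1, 2 and 3, against 24.5 and 19.9 FPKM in neurons 1 and 2. Members only (mbo, the fly Nup88, which with Nup214 binds emb) stood at 39.0, 40.6 and 76.4 FPKM in neuroblasts 1, 2 and 3, against 17.0 and 13.9 FPKM in neurons 1 and 2. The pair had log2 fold changes of 1.89 and 1.62, and adjusted p-values of 0.00104 and 0.00639 with limma.

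The nuclear basket was mixed. Nup50, a basket protein that helps take importin alpha apart from its cargo (FBgn0033264, 2R, 4010521 to 4012563), stood at 86.5, 97.5 and 142 FPKM in neuroblasts 1, 2 and 3, against 25.4 and 19.97 FPKM in neurons 1 and 2, a log2 fold change of 2.19 (SE 0.29, adjusted p = 0.00117). Megator (Mtor, the fly Tpr, the long coiled-coil protein of the basket; FBgn0013756, 2R, 7740124 to 7748364) stood at 103, 101 and 69.7 FPKM in neuroblasts 1, 2 and 3, against 66.0 and 74.6 FPKM in neurons 1 and 2. Nup153, which anchors the basket (FBgn0061200, X, 16493356 to 16504492), stood at 85.1, 84.7 and 55.5 FPKM in neuroblasts 1, 2 and 3, against 64.7 and 67.0 FPKM in neurons 1 and 2. In both, neuroblasts 1 and 2 lay above the neurons and neuroblast 3 lay below at least 1 neuron replicate. Mtor differed by 0.35 (95% confidence interval -0.29 to 0.99, adjusted p = 0.287) and Nup153 by 0.16 (-0.50 to 0.82, adjusted p = 0.63), and the sign of both turned with upper quartile, protein-coding sum and quantile scaling. Cufflinks gave Nup153 the status FAIL in 1 library of neuroblast 2, at a value close to that of its technical pair (83.8 and 85.6 FPKM). On within-replicate ratios the log2 fold change of Nup50 exceeded that of Nup153 by 2.02 (0.94 to 3.10, limma adjusted p = 0.00563) and that of Mtor by 1.83 (0.80 to 2.87, adjusted p = 0.00687). Without neuron replicate 2 these differences were 1.83 with an adjusted p of 0.0827 and 1.58 with 0.117.

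**Figure D3:**
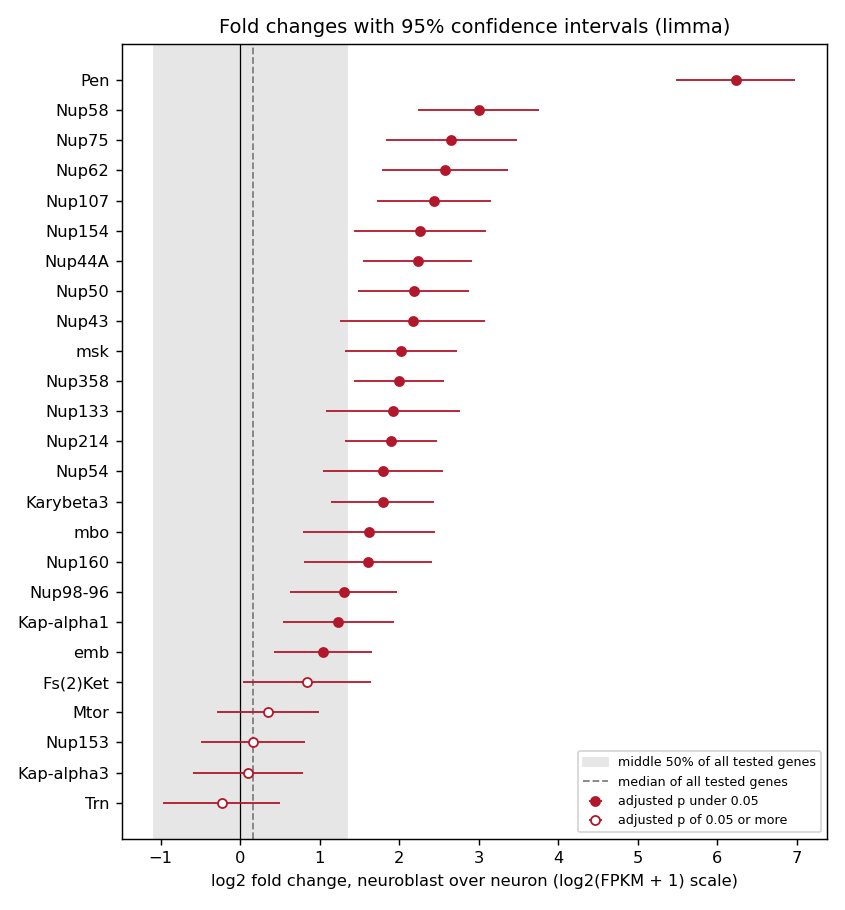
Log2 fold change of neuroblasts over neurons for each gene with its 95% confidence interval from limma, filled where the adjusted p was under 0.05, with the median and the middle 50% of all tested genes in grey. Pen stands apart at 6.23, 19 further genes pass between 1.05 and 3.00, and the 5 open symbols lie between -0.23 and 0.84.

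The order of the levels differed between the cell types. In neuroblasts Pen was the highest, followed by Nup358, Karybeta3, msk, emb and Fs(2)Ket, at means of 914, 254, 214, 204, 152 and 137 FPKM. Among these neighbours Pen and Nup358 lay apart by more than their spread, while Nup358 to Fs(2)Ket each overlapped the next within the replicate range, as from Karybeta3 (190.1 to 254 FPKM) to msk (160.2 to 272 FPKM). In neurons the order was Kap-alpha3, Fs(2)Ket, emb, Mtor, Nup153, Trn, Nup358, Karybeta3 and msk, at means of 81.3, 75.1, 72.9, 70.3, 65.8, 65.1, 63.0, 61.4 and 48.0 FPKM. Among these neighbours the replicate ranges overlapped down to Karybeta3, and msk lay below Karybeta3 in every replicate. These 9 genes hold the 5 that did not pass. The other 16 had neuron means of 7.78 to 30.9 FPKM, with Nup98-96 at the top, Pen 23rd and Nup58 at the bottom. Summed over the 17 nucleoporins, levels were 1385, 1377 and 1894 FPKM in neuroblasts 1, 2 and 3 and 457.8 and 435 FPKM in neurons 1 and 2, and over the 8 receptors 1809, 1500 and 2105 FPKM in neuroblasts and 429 and 430.6 FPKM in neurons.

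Among the neuroblast replicates the set did not vary as one block. Neuroblast 3 was the highest of the 3 replicates for 20 of the 25 genes, the lowest for Fs(2)Ket, Mtor, Nup153 and Trn (4 genes), and in the middle for emb. Of all tested genes, 52.4% were highest and 32.1% lowest in neuroblast 3. These 4 genes are among the 5 that did not pass against neurons. A low value in neuroblast 3 itself lowers the neuroblast mean and widens the spread, so this is not a separate observation. Relative to the gene's mean over neuroblasts, neuroblast 3 stood at 0.68 for Fs(2)Ket, 0.69 for Trn, 0.74 for Nup153 and 0.76 for Mtor, and at 1.07 to 1.48 for the 20 genes. Its 2 technical libraries gave the same picture, with an SD of their log2 difference of 0.043 over the set, against 0.069 for those of neuroblast 2 and 0.143 for those of neuron 1. Neuroblast 3 was sequenced on other flow cells than neuroblasts 1 and 2, as the file names give them. It had the largest FPKM sums (740395 and 753682, against 449268 to 551675 in the other neuroblast libraries and 321551 to 343514 in the neuron libraries). Neuronal markers were also lowest in neuroblast 3: elav stood at 57.2, 35.3 and 10.01 FPKM, brp at 14.1, 4.69 and 0.0553 FPKM and Syt1 at 12.8, 5.53 and 0.144 FPKM in neuroblasts 1, 2 and 3, and the sum of the 6 at 103.8, 55.0 and 10.7 FPKM. The part of the flow cells, the FPKM sums and the neuronal RNA in this split was not tested.

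**Figure D4:**
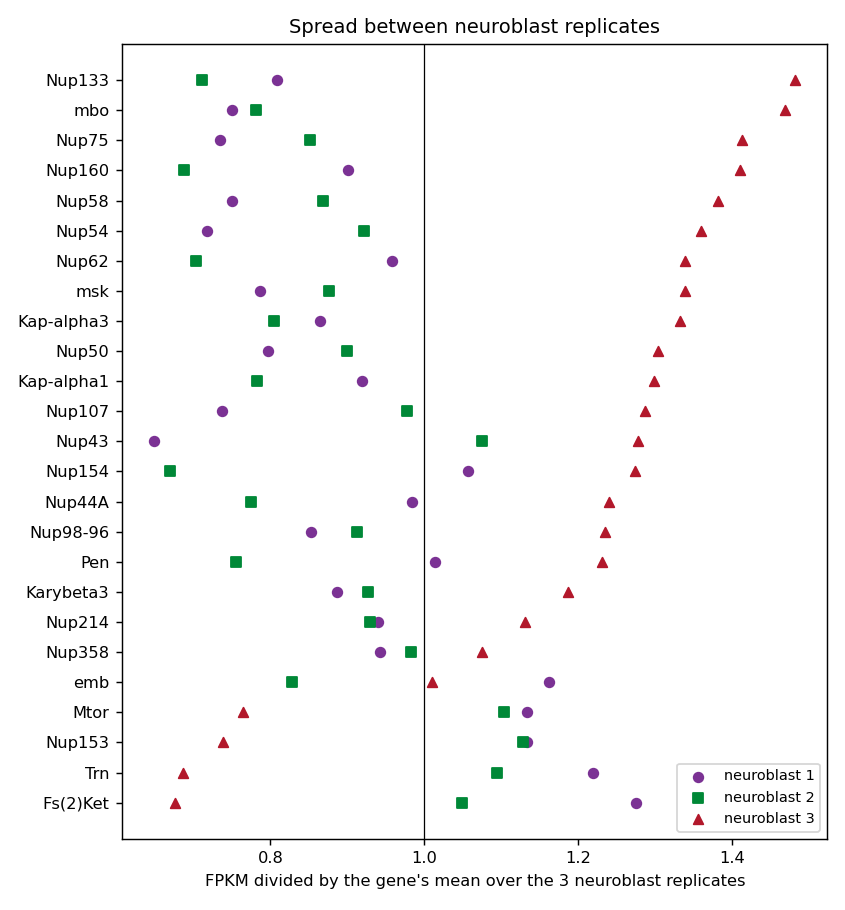
FPKM of each gene in the 3 neuroblast replicates divided by the gene's mean over them, ordered by neuroblast 3. Red triangles (neuroblast 3) lie right of the others for 20 genes and left of them for Fs(2)Ket, Trn, Nup153 and Mtor, between 0.68 and 0.76 of the mean.

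The authors' deposited table of neuroblasts against neurons, which lists genes at an adjusted p up to 0.00995, holds 17 of the 25 genes, all higher in neuroblasts, where it lists 21.3% of the genes tested here as higher in neuroblasts and 20.6% as higher in neurons. Its mean scaled counts for Pen are 22570 in neuroblasts and 306 in neurons, a fold of 73.7 with an adjusted p of 9.91e-24 in the authors' deposited table. For Nup58 and Nup75 the authors' deposited table gives folds of 7.38 and 6.40, and for Nup160 and Nup54, the smallest it lists for the set, 3.10 and 3.07. The 17 were all among the 20 that passed here, and the other 3 (emb, Kap-alpha1 and Nup98-96) are the ones with the smallest log2 fold changes that passed.

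The rest of the pathway was read from 5 lists. Of their 49 tested genes 28 passed as higher in neuroblasts and 1 as higher in neurons at a limma adjusted p under 0.05, beside the 33.4% and 29.9% of all tested genes, and their median log2 fold change was 0.99. With other scalings these counts were 24 higher in neuroblasts and 4 in neurons (upper quartile), 25 and 2 (median ratio), 25 and 5 (quantile) and 21 and 8 (protein-coding sum). The shares over all tested genes were 28.5% and 36.5% (upper quartile) and 30.8% and 34.5% (median ratio). They were 31.7% and 31% with quantile and 21.9% and 43.8% with protein-coding sum scaling. A further 6 nucleoporin genes carry CG numbers in the tables and were gathered by their names in the reference after the lists were made; 2 of them, Nup35 and Nup37, were already in the list of other pore proteins, and 4 are in no list. All 6 passed as higher in neuroblasts, beside 33.4% of all tested genes, with a median of 1.84. They were the inner ring genes Nup93-1 (CG11092), Nup93-2 (CG7262), Nup188 (CG8771), Nup205 (CG11943) and Nup35 (CG6540), and the Y complex gene Nup37 (CG11875). Nup93-1 averaged 145 ± 38.1 FPKM in neuroblasts, against 21.5 ± 7.64 in neurons (SD, n = 3 and 2), and Nup37 averaged 59.6 ± 26.7 FPKM in neuroblasts, against 6.99 ± 1.14 in neurons. The Nup37 gene ends 493 bases before Nup358 on the same strand.

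Of 9 other pore proteins 8 passed as higher in neuroblasts and 0 as higher in neurons, beside 33.4% and 29.9% of all tested genes. The list's median was 1.65. Ndc1 (CG5857), which spans the membrane at the pore, averaged 119 ± 19.5 FPKM in neuroblasts, against 12.9 ± 3.36 in neurons, a log2 difference of 3.12 (SE 0.28, adjusted p = 0.000461) by limma. Aladin (CG16892) averaged 66.4 ± 13.8 FPKM in neuroblasts, against 8.62 ± 1.84 in neurons, a log2 difference of 2.80. These and Nup37 had the smallest adjusted p-values of the list. The gene that did not pass was Elys (CG14215), which starts pore assembly on chromatin, at a log2 difference of 0.71 with an adjusted p of 0.0787.

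All 4 genes of the Ran cycle passed as higher in neuroblasts, beside 33.4% of all tested genes, with a median of 2.24. The calls of Bj1 and RanGap held in every alternative run, while Ntf-2 did not pass without neuron replicate 1 (1.45, limma adjusted p = 0.0963) and RanBP3 did not pass with protein-coding sum scaling (0.50, adjusted p = 0.0649). The gene ran, kept apart from that list, averaged 1673 ± 371 FPKM in neuroblasts, against 220.0 ± 8.77 in neurons (SD, n = 3 and 2), a log2 fold change of 2.90 (SE 0.34, adjusted p = 0.00088) with limma. Bj1, the fly RCC1 and the exchange factor that loads Ran with GTP on chromatin, stood at 408, 369 and 518 FPKM in neuroblasts 1, 2 and 3, against 15.6 and 15.9 FPKM in neurons 1 and 2, a log2 fold change of 4.68 (SE 0.26, adjusted p = 0.000196). Its lowest neuroblast replicate was 23.2 times its highest neuron replicate. RanGap, whose product makes Ran hydrolyse GTP in the cytoplasm, averaged 234 ± 46.5 FPKM in neuroblasts, against 35.1 ± 8.75 in neurons, a log2 difference of 2.70. RanBP3, a cofactor of export, had a log2 difference of 1.26. Ntf-2, which brings Ran back into the nucleus, had a log2 difference of 1.77 with an adjusted p of 0.0141. The related gene ran-like was at 0.042 FPKM in neuroblasts on average and at 0 in neurons.

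Other transport receptors divided. Of 11 tested, 5 passed as higher in neuroblasts and 0 as higher in neurons, beside 33.4% and 29.9% of all tested genes. The list's median was 0.98. With protein-coding sum scaling 4 passed as higher in neuroblasts and 4 as higher in neurons, beside 21.9% and 43.8% of all tested genes. Cas, the fly Cse1, which returns importin alpha to the cytoplasm, stood at 278, 154 and 408 FPKM in neuroblasts 1, 2 and 3, against 12.4 and 19.6 FPKM in neurons 1 and 2, a log2 fold change of 3.97 (SE 0.44, adjusted p = 0.000744) with limma. Ranbp9, which the reference names Ipo9, stood at 160.4, 184 and 321 FPKM in neuroblasts 1, 2 and 3, against 12.1 and 8.38 FPKM in neurons 1 and 2, a log2 fold change of 4.26 (SE 0.36, adjusted p = 0.000402). The lowest neuroblast replicate was 7.86 times the highest neuron replicate for Cas and 13.3 times for Ranbp9. Ranbp11 had a log2 difference of 1.52 with an adjusted p of 0.00442. Log2 differences near 0 were seen for Ranbp16 at 0.04, Exp6 at -0.20 and cdm, related to importin 13, at -0.28, with 95% confidence intervals of -0.68 to 0.76, -0.90 to 0.50 and -0.95 to 0.38. Of the others that did not pass, Trn-SR was at -0.495 (-1.27 to 0.28), Ranbp21 at 0.598 (0.004 to 1.19) and CG32165 at 0.978 (0.016 to 1.94).

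Of 15 tested mRNA export genes 8 passed as higher in neuroblasts and 0 as higher in neurons, beside 33.4% and 29.9% of all tested genes. The list's median was 0.97. Fewer passed without neuron replicate 2. With upper quartile, protein-coding sum and quantile scaling 6, 5 and 6 passed as higher in neuroblasts, and 1 as higher in neurons each time. Of all tested genes 28.5%, 21.9% and 31.7% then passed as higher in neuroblasts and 36.5%, 43.8% and 31% as higher in neurons. The smallest adjusted p-values were those of nxf2, a relative of the mRNA export receptor that averaged 19.4 ± 7.56 FPKM in neuroblasts, against 1.23 ± 0.364 in neurons, of e(y)2 at 86.1 ± 30.2 FPKM in neuroblasts, against 14.8 ± 2.68 in neurons and of Nxt1, the partner of that receptor, at 231 ± 50.1 FPKM in neuroblasts, against 44.1 ± 17.2 in neurons. The receptor gene sbr itself did not pass, at a log2 difference of -0.26 (95% confidence interval -0.86 to 0.34). Of 10 tested lamina and envelope genes 3 passed as higher in neuroblasts and 1 as higher in neurons, near the 33.4% of all tested genes for neuroblasts and below the 29.9% for neurons, and the list's median was 0.46. With protein-coding sum or quantile scaling 2 passed as higher in neuroblasts and 3 in neurons, and with upper quartile or median ratio scaling 2 and 2. Over all tested genes the shares were 21.9% and 43.8% (protein-coding sum) and 31.7% and 31% (quantile). They were 28.5% and 36.5% with upper quartile and 30.8% and 34.5% with median ratio scaling. None of the list's counts in these runs exceeded its share over all tested genes. Otefin (Ote), an inner membrane protein, averaged 202 ± 58.1 FPKM in neuroblasts, against 14.6 ± 1.71 in neurons. The log2 differences were 3.67 for Ote, 2.18 for Torsin and 0.79 for bocksbeutel, the last with an adjusted p of 0.0411. The gene higher in neurons was Msp-300, a nesprin that links the nucleus to the cytoskeleton, at 5.22 ± 3.74 FPKM in neuroblasts, against 16.8 ± 0.872 in neurons. Its log2 difference was -1.79 (SE 0.66, limma adjusted p = 0.0463). It did not pass with 0.1 or 0.5 added to the FPKM in place of 1 (0 genes of the list in each case). Nor did it pass without either neuron replicate. Lamin (Lam) averaged 300.2 ± 25.4 FPKM in neuroblasts, against 196 ± 28.8 in neurons, a log2 difference of 0.62 with an adjusted p of 0.0764.

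**Figure D5:**
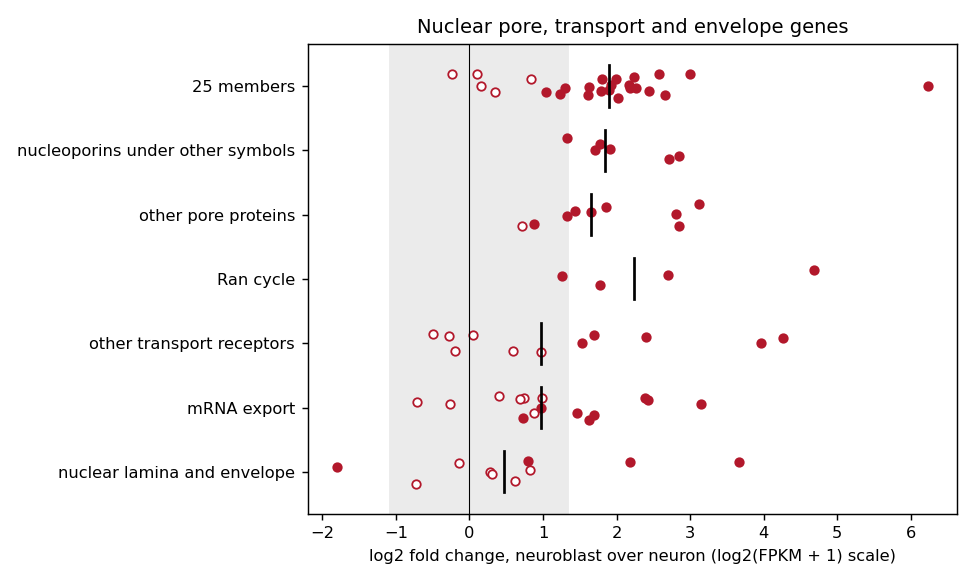
Log2 fold change of neuroblasts over neurons for the 25 genes and for each list, 1 point a gene, filled where the limma adjusted p was under 0.05, with black bars at the medians and the middle 50% of all tested genes in grey. The medians run from 0.46 for the lamina and envelope to 2.24 for the Ran cycle, with 1.89 for the 25 genes.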

How the data were processed

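FPKM values were made by the authors with Cufflinks, per the file headers, 1 value per gene and library. DESeq 1.8.3, Cufflinks 1.3.0, HTSeq, TopHat 1.4.1 and BWA 0.6.1 are named in the submitters' processing notes, without their roles. The build was not given in the sources used here, and coordinates are the files', with a 1-based start. Libraries kept the strand by dUTP and came from about 1 µg of total RNA, per the labels' protocols. The authors' deposited table gives mean scaled counts (a signal), their ratio (fold), its log2 and p-values with adjustment, neuroblast over neuron per its condition columns.

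Technical replicates were averaged on the log2 scale (for printed FPKM, on the linear scale) into 3 neuroblast and 2 neuron replicates. No label ties a replicate to animals or sorts of its own, and p-values therefore cover the spread among these samples alone, which may be technical. limma 3.58.1 in R 4.3.3 was run on log2(FPKM + 1) with a trend in the prior variance, two-sided, for the 7975 genes that reached 1 FPKM in 2 or more replicates, with Benjamini-Hochberg adjustment over all of them. Fold changes on this scale understate the change of low genes. Fragment numbers were recovered from the upper Cufflinks bound, read as the value plus 2 counting SD: for genes with 1 transcript 91.0% to 91.6% of values under 200 fragments came out whole within 0.05. Counting SDs cover counting error only. Names came from the files, or from a reference annotation of release 115 used for symbols, biotypes and overlaps only (13575 of 14210 identifiers matched). The analysis was tested on simulated data. Alternatives covered pseudocount, filter, scaling, technical replicates, prior variance, replicate block, threshold, flow cell, status and each replicate left out. The members, lists and tests were chosen with earlier results of these data known. All 25 genes are named, and from each list up to 3 genes with the smallest adjusted p and those called against its majority; other list genes named were chosen after their values were seen. Columns not given to a sample numbered 0. Protein and promoter sequences were not used here.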

Additional observations from a re-analysis of the deposited data

How the results depend on the processing

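Of the 20 genes that passed, 17 kept their direction and call in all 23 alternatives run; the exceptions were emb, Kap-alpha1 and Nup98-96. The count of genes higher in neuroblasts was 17 to 21 over the alternatives, and 17 to 21 with each replicate left out. The number higher in neurons was 0 throughout, except 1 (Kap-alpha3) with protein-coding sum scaling. The median log2 fold change of the 25 genes was 1.52 with upper quartile scaling, 1.14 with protein-coding sum scaling, 1.49 with quantile normalization, 1.398 with the replicate block and upper quartile scaling, 1.56 on the shared flow cell (neuroblasts 1 and 2 against neuron 1, which is assumed to vary like the neuroblasts) and 1.66 to 2.01 with each replicate left out, where a lone neuron replicate is likewise assumed to vary like the neuroblasts. The scalings moved the median of all tested genes as well, to -0.17, -0.06 (median ratio), -0.53 and 0.01 (quantile), and the genes' median stood 1.69, 1.70, 1.67 and 1.48 above it, against 1.73 as deposited.

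With protein-coding sum scaling emb, Kap-alpha1 and Nup98-96 did not pass (0.28, 0.50 and 0.55, limma adjusted p = 0.32, 0.0855 and 0.0962), nor did emb with quantile normalization (0.50). Signs turned for Kap-alpha3 with upper quartile, median ratio, protein-coding sum and quantile scaling (-0.28, -0.15, -0.66 with adjusted p = 0.0271, and -0.43), on the shared flow cell (-0.15), without neuroblast replicate 3 (-0.12, against up to 0.24 without any other replicate) and with the replicate block (-0.12, and -0.39 with upper quartile scaling). They turned for Nup153 in the same 4 scalings (-0.22, -0.089, -0.60 and -0.27) and for Mtor with upper quartile, protein-coding sum and quantile scaling (-0.027, -0.41 and -0.12). Trn was 0.011 with the replicate block and without neuroblast replicate 3, and as low as -0.395 (without neuroblast replicate 1) with others left out. Fs(2)Ket was 1.35 on the shared flow cell. The cause was not tested.

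The Pen share differed by 77.4 percentage points, by 79.96 on the shared flow cell and by 75.3 to 79.6 with each replicate left out. The genes of the 5 lists that passed numbered 29 (28 higher in neuroblasts and 1 in neurons), and 21 to 30 over the alternatives. With protein-coding sum scaling they split into 21 and 8, beside 21.9% and 43.8% of all tested genes. Without a filter 3 other transport receptors and 5 mRNA export genes passed as higher in neuroblasts. In that run 13.8% of all 14210 genes passed as higher in neuroblasts and 16.6% as higher in neurons. The labels do not say that same-numbered replicates are pairs. Deviations from the group means correlated at -0.52 for number 1 and -0.39 for number 2. Neuroblast 1 with neuron 2 gave 0.52, and neuroblast 2 with neuron 1 gave 0.39. With 2 neuron replicates the deviations mirror each other, so these values cannot decide whether replicates were paired. Ntf-2 did not pass without a filter (1.77, adjusted p = 0.0931) or with the replicate block (1.545, adjusted p = 0.055), nor RanBP3 with the replicate block and upper quartile scaling (0.93, adjusted p = 0.0537). With the replicate block 19 of the 25 genes passed as higher in neuroblasts and 0 as higher in neurons, with emb at 1.03 (limma adjusted p = 0.0609). Of all tested genes 25.7% and 24.8% passed in that run. Number 3 occurs only among neuroblasts, so the block gave the same log2 fold changes as leaving out neuroblast replicate 3 (median 1.66 in both). The 2 runs are therefore not separate checks of these fold changes. Low neuron counts limit precision: the smallest neuron library held 35 fragments for Nup43, 31 for Nup37 and 7 for nxf2.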
